A study of Mus musculus with 2 samples.

Results

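The report concerns the genes through which a Hedgehog signal is sent, received and relayed, measured in cultured ureters of newborn mice: the ligand gene Shh, the co-receptor genes Gas1, Cdon and Boc, the signal transducer gene Smo, and the intracellular genes Kif7, Sufu, Gli2 and Gli3. These 9 genes were chosen by name. Their 15 probes were all those on the array that carried one of these names, out of 30011 named genes in all. Where a gene had several probes, the one that was brightest on average in the 4 channels stood for it. Ureters of wildtype NMRI mice were explanted at postnatal day 0. For 18 h the culture medium contained 10 µM of cyclopamine, a steroidal alkaloid that binds and blocks SMO, or solvent only (DMF at 1:1000 per the labels, whereas the methods of the study name ethanol as the solvent of cyclopamine). RNA from pools of 5 or 6 ureters was hybridised to 2 two-colour arrays, so that each array compared cyclopamine and control pools of the same sex. Replicate 1 held female pools with the control in AlexaFluor555 (green) and cyclopamine in AlexaFluor647 (red), and replicate 2 held male pools with the dyes exchanged. Sex, dye orientation and pool therefore cannot be told apart. The source name of the treated channel in the labels gives IWP-2, an inhibitor of WNT secretion, while the title and the treatment entry of both samples give cyclopamine. In the treated channel the Hedgehog targets Gli1 and Ptch1 were lower than in the control on both arrays.

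In the Hedgehog pathway, SHH secreted by an epithelium binds PTCH1 on neighbouring cells, with GAS1, CDON and BOC as co-receptors. Ligand binding lifts the repression of SMO by PTCH1. Active SMO enters the primary cilium, where the kinesin-like protein KIF7 and the inhibitor SUFU control the processing of GLI2 and GLI3. Without signal GLI3 in particular is cut to a repressor, and with signal GLI2 acts mainly as an activator. Gli1, Ptch1 and Hhip are transcribed in response, and PTCH1 and HHIP bind the ligand in turn. In the developing ureter Shh is expressed by the urothelium, and the surrounding mesenchyme responds. Several of the 9 genes are also known in other embryonic tissues as targets that Hedgehog signaling represses, among them Gas1, Cdon and Boc. The comparison asked whether the transcripts of the pathway's own components changed when SMO was blocked.

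Each value rests on 60-base oligonucleotides, printed in 4 spots per array, of which 3 or 4 were used. Coordinates below are those of the array annotation (mouse build mm9), which gives neither exon nor UTR for a probe. Of each probe, bases 16 to 45 are shown, 5′ to 3′, with tandem repeats of 2 to 4 bases in capitals. The 3 probes for Gas1 are shown because Gas1 had the largest mean ratio among the 9 genes, by its brightest probe. They lie on the minus strand of chromosome 13, at chr13:60276399-60276458 (brightest), chr13:60278243-60278302 (second) and chr13:60277268-60277327 (the third).
Gas1, brightest probe: ttgaacaatgcatgttttttatcctaaagc
Gas1, second probe: catgccagaagtgcgcggaactcggacaaa
Gas1, the third probe: GGCGGCGGCGctgctgcggcgggcggccgc
The third Gas1 probe was the richest in G and C, at 85% of its 60 bases.

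The probes for Smo and Cdon are shown because the probes of each gene gave ratios of unequal size. Those of Smo lie on the plus strand at chr6:29711225-29711284 (brightest) and chr6:29710919-29710978 (second), and those of Cdon on the plus strand at chr9:35315141-35315200 (brightest) and chr9:35311862-35311922 (second).
Smo, brightest probe: tcatagtgccccacattcaagaaccagaca
Smo, second probe: CACACACAgACACACACACACAtacactct
Cdon, brightest probe: atactctaagtgatgtagttttgacaggtt
Cdon, second probe: actgtgtgaaggacattaattcaaatcaga
In the second Smo probe, 31 of the 60 bases lay in CA repeats. The ligand was read by a single probe on the minus strand at chr5:28783983-28784042.
Shh: gaactgtactcacagtgagggaaagattat

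None of the 9 genes passed the limma test, and none reached a fold filter set after that of the study. The smallest adjusted p was 0.272 (Gas1) and the largest 0.941 (Gli3; limma, Benjamini-Hochberg over 25975 probes). Over all these probes, 0.77% were called lower and 0.454% higher, and among the 19397 genes tested by their brightest probe 1.3% were called in either direction. The filter requires that both control intensities exceed 100 and that both arrays change by 1.5-fold or more with the same sign; it carries no p-value. That the limits apply to each array is a reading of the methods, so the gene counts need not equal those of the study. By this filter 0.637% of the 13660 genes above the intensity limit were lower and 0.212% were higher. Of the 9 genes, 8 were above the intensity limit, Sufu being the exception. At an unadjusted p under 0.05, 1 of the 9 genes (Gas1) was higher and none was lower. At the same limit, 819 of the 19397 genes tested were higher and 934 were lower. Precision was limited by the number of arrays, since a pair of ratios leaves 1 residual degree of freedom. The p-values and intervals rest mostly on the variance pooled over all probes (51.9 prior degrees of freedom), so their width hardly reflects the spread of a gene's own 2 ratios. The 95% confidence intervals were wide, and among the 9 genes they reached from a 1.55-fold decrease (Gli2) to a 2.09-fold increase (Gas1). With these arrays, changes inside the interval of a gene could not be told from each other.

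All 9 genes were measured well above background in all spots of all 4 channels by their brightest probe. Intensities are in arbitrary units and are set side by side only within a probe and an array, because replicate 1 was much brighter than replicate 2 (control 75th percentiles of 3337 and 628). In RNA of whole explants, fewer cells of a type and less RNA per cell cannot be told apart. To check the tissue label, marker genes were read: all 15 urothelium markers, all 8 smooth muscle markers and all 9 fibrocyte markers passed the filter on dim probes. Of 6 kidney markers, Slc12a1 and Umod were not well above background in any spot, and Nphs1 and Slc34a1 were so in under 0.5 of the spots of every channel. The remaining kidney markers, Aqp2 and Lrp2, were well above background in every spot, at intensities between 12.1 and 55.5 for Aqp2 and between 35.6 and 142 for Lrp2.

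**Figure D1:**
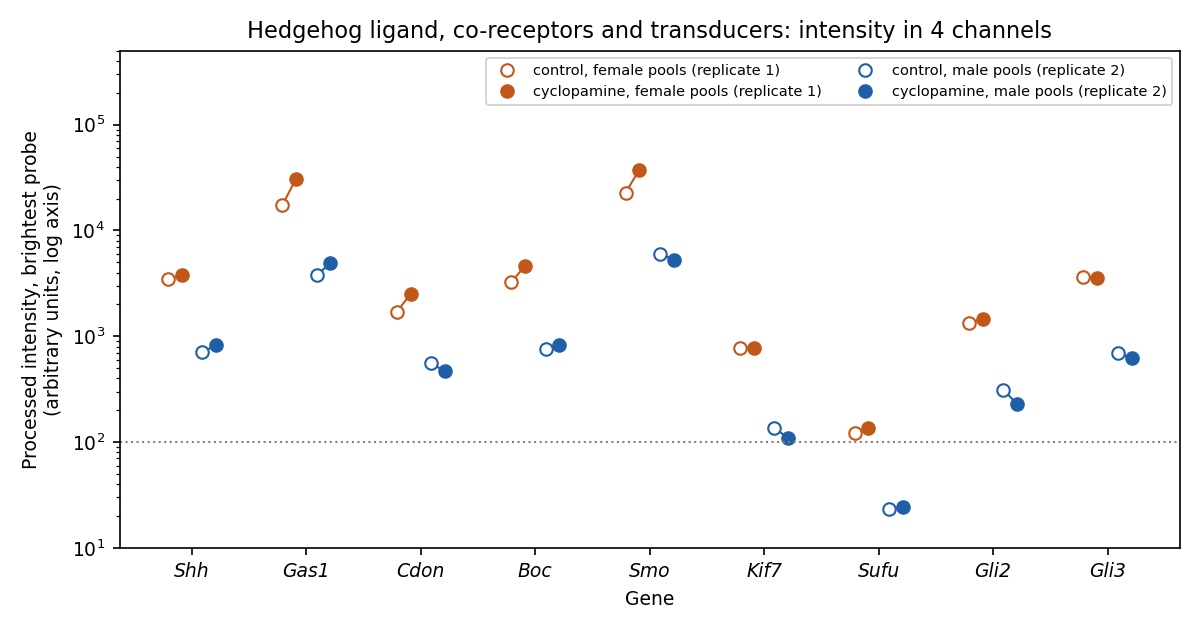
Processed intensity (arbitrary units, log axis) of the brightest probe of each of the 9 genes in the 4 channels; open circles are control pools, filled circles cyclopamine pools, orange the female pools (replicate 1), blue the male pools (replicate 2), and the dotted line is the intensity limit of 100. Cyclopamine points lie above their controls on both arrays for Shh, Gas1, Boc and Sufu, and above on replicate 1 but below on replicate 2 for Smo, Cdon and Gli2.

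Shh, the ligand, was read on replicate 1 at an intensity of 3456 without and 3775 with cyclopamine. On replicate 2 the intensities were 706 and 824. The cyclopamine pool was thus the higher of the pair on both arrays, by 1.09-fold and 1.17-fold. The mean log2 ratio of cyclopamine over control was 0.18 ± 0.068 (SD, n = 2 arrays), with a 95% confidence interval from -0.28 to 0.63 and a limma adjusted p of 0.847. Markers of the epithelium that makes SHH had ratios of like size: the median log2 ratio of the 15 urothelium markers was 0.16 on replicate 1 and 0.18 on replicate 2, and 11 of them were higher on both arrays. The summed intensity of these markers was 594702 (control) and 678398 (cyclopamine) on replicate 1, and 151647 and 169363 on replicate 2. None of them was called by limma, and their part in the Shh ratio was not tested.

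Among the co-receptors, Gas1 and Boc were higher with cyclopamine on both arrays and Cdon on 1. Gas1 encodes a GPI-anchored membrane protein that binds SHH. Its intensity was 17389 (control) and 30795 (cyclopamine) on replicate 1, and 3774 and 4916 on replicate 2. Both cyclopamine pools lay above their controls, by 1.77-fold and 1.30-fold, so that the second array was below the 1.5-fold limit. The mean log2 ratio was 0.60 ± 0.31 (SD, n = 2), with a 95% confidence interval from 0.15 to 1.06. Gas1 was the only one of the 9 genes whose interval lay above 0 by the brightest probe. It did not pass the adjusted limit (limma adjusted p = 0.272). Its mean ratio ranked 334 from the top of the 19397 genes tested. The second and the third probe of Gas1 also read higher on both arrays, with mean log2 ratios of 0.57 ± 0.040 and 0.33 ± 0.16 (SD, n = 2). None of the 3 probes passed the adjusted limit, the second at an adjusted p of 0.327 and the third at 0.68 (limma).

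Boc and Cdon encode related transmembrane proteins of the immunoglobulin superfamily. Boc was read by a single probe, in which 21 of the 60 bases lay in tandem repeats. Its intensities were 3242 (control) and 4628 (cyclopamine) on replicate 1, and 763 and 826 on replicate 2. Its log2 ratio was 0.51 on replicate 1 but only 0.11 on replicate 2, with a mean of 0.31 ± 0.28 (SD, n = 2) and a limma adjusted p of 0.703. Cdon had intensities of 1694 (control) and 2517 (cyclopamine) on replicate 1, and 558 and 465 on replicate 2. The 2 arrays thus pointed in opposite directions, with log2 ratios of 0.57 and -0.26. The mean was 0.15 ± 0.59 (SD, n = 2; limma adjusted p = 0.875). The dimmer second probe of Cdon, with intensities between 22.5 and 82.2, gave 0.96 on replicate 1 and 0.048 on replicate 2. Its mean was 0.50, with a 95% confidence interval from 0.034 to 0.97 and a limma adjusted p of 0.475. Markers of fibrocytes, the mesenchymal cells of the lamina propria and adventitia, had opposite ratios on the 2 arrays in 5 of 9 genes: their median log2 ratio was 0.44 on replicate 1 and -0.44 on replicate 2, with 7 of 9 higher on replicate 1 and 2 of 9 on replicate 2. Their summed intensity was 366854 (control) and 570655 (cyclopamine) on replicate 1, and 171399 and 136606 on replicate 2. Aldh1a2 and Thy1, genes expressed in the lamina propria, were lower on both arrays, with log2 ratios of -0.62 and -0.65 for Aldh1a2 (limma adjusted p = 0.218) and of -0.83 and -0.79 for Thy1 (limma adjusted p = 0.058). Pdgfra and Dpt, of the same marker list, were higher on both arrays. Their log2 ratios were 1.27 and 0.014 for Pdgfra (limma adjusted p = 0.266) and 0.13 and 0.12 for Dpt (limma adjusted p = 0.900). The part of the fibrocytes in the co-receptor ratios was not tested.

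Smo, which encodes the target of cyclopamine itself, had the largest difference between the arrays among the brightest probes of the 9 genes. Its intensity was 22830 (control) and 37605 (cyclopamine) on replicate 1, 1.65-fold of the control. On replicate 2 it was 6010 in the control and 5305 with cyclopamine, 0.883-fold of the control. The log2 ratios of 0.72 and -0.18 differed by 0.90, while the spots of the probe varied by an SD of 0.044 and 0.025 within each array. The mean was 0.27 ± 0.64 (SD, n = 2), with a 95% confidence interval from -0.20 to 0.74 (limma adjusted p = 0.753). The second, CA-rich probe pointed the same way on each array with smaller values, 0.30 and -0.13.

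The intracellular members were close to their controls on replicate 1 and mostly lower on replicate 2. Kif7 had intensities of 773 (control) and 770 (cyclopamine) on replicate 1, and 135 and 109 on replicate 2. Its log2 ratios were -0.0046 and -0.31 (mean -0.16 ± 0.21, SD, n = 2; limma adjusted p = 0.87). A second Kif7 probe was not well above background on replicate 2 and was not tested. Sufu, the negative regulator that holds GLI proteins in the cytoplasm, was the dimmest member, with 122 and 135 on replicate 1 and 23.3 and 24.1 on replicate 2. Its log2 ratios were 0.14 and 0.051 by the brighter probe and 0.12 and -0.11 by the dimmer one, all within the SD over spots of the probe on that array. The mean of the brighter probe was 0.094 ± 0.061 (SD, n = 2; limma adjusted p = 0.929).

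Of the GLI transcription factor genes, Gli2 had intensities of 1346 (control) and 1457 (cyclopamine) on replicate 1, and 313 and 228 on replicate 2. Its log2 ratio of -0.46 on replicate 2 was the lowest among the 9 genes on either array, but replicate 1 gave 0.11, and the mean was -0.17 ± 0.40 (SD, n = 2; limma adjusted p = 0.855). Gli3 had intensities of 3626 (control) and 3569 (cyclopamine) on replicate 1, and 688 and 626 on replicate 2. Both cyclopamine pools were slightly below their controls, with log2 ratios of -0.023 and -0.14. The mean of Gli3 was -0.080 ± 0.080 (SD, n = 2), with a 95% confidence interval from -0.53 to 0.37 (limma adjusted p = 0.941).

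**Figure D2:**
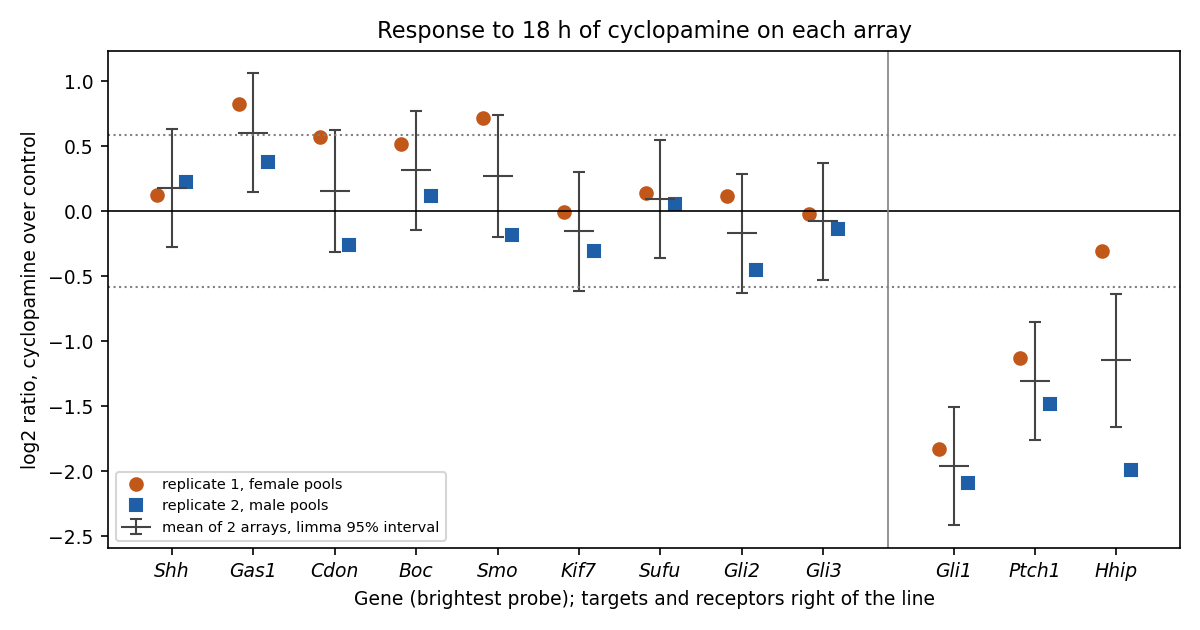
log2 ratio of cyclopamine over control for the brightest probe of the 9 genes and, right of the vertical line, of 3 target and receptor genes; circles are replicate 1 (female pools), squares replicate 2 (male pools), bars the mean with the limma 95% confidence interval, and dotted lines 1.5-fold in either direction. Gas1 is the only one of the 9 genes whose interval lies above 0, whereas the intervals of Gli1, Ptch1 and Hhip lie below 0.

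The targets of the pathway were lower in the same cyclopamine pools. Gli1, a transcription factor gene transcribed in response to the pathway, had intensities of 7771 (control) and 2182 (cyclopamine) on replicate 1, and 1236 and 290 on replicate 2. It fell 3.90-fold on average (log2 ratios -1.83 and -2.09; limma adjusted p = 1.76e-08). Ptch1, the receptor gene, had intensities of 785 and 360 on replicate 1 and 207 and 73.7 on replicate 2, a 2.47-fold mean decrease (limma adjusted p = 0.000248). Its other probe gave log2 ratios of -0.54 and -1.42, a 1.97-fold mean decrease (limma adjusted p = 0.0149). Hhip, the gene of a membrane-bound ligand antagonist, had log2 ratios of -0.31 on replicate 1 and -1.99 on replicate 2 by its brightest probe (limma adjusted p = 0.00683) and of -0.99 and -2.32 by its other probe (limma adjusted p = 8.13e-06). The fold filter was passed by Gli1 and Ptch1 but not by Hhip, whose brightest probe was at 0.808-fold of the control on replicate 1. The limma intervals of these 3 genes had their upper ends at -1.51 for Gli1, -0.85 for Ptch1 and -0.64 for Hhip. The lowest lower end among the 9 genes was -0.63, for Gli2. These ends do not test a separation, since the widths come mostly from the pooled variance. The interval of Hhip left out its own replicate 1 ratio of -0.31, and Gli2 was at -0.46 on replicate 2. Gli1, Gli2 and Gli3 encode related factors, and of them only the transcript of Gli1 was called; the differences between the 3 genes were not tested.

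**Figure D3:**
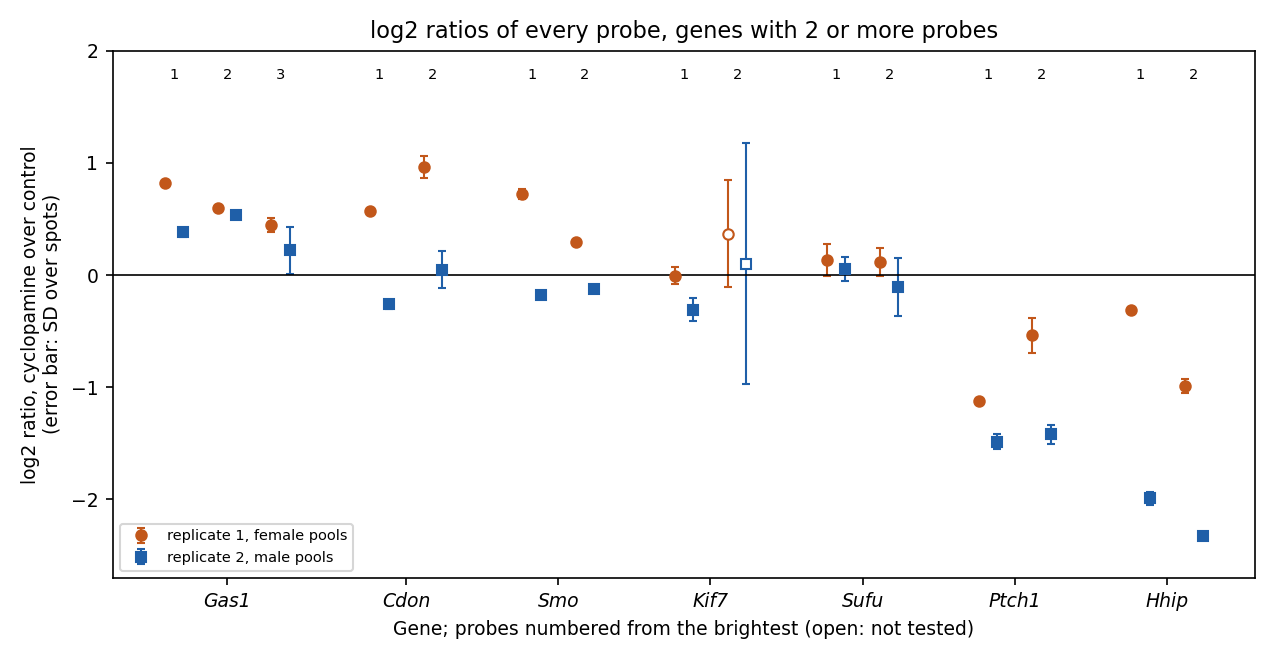
log2 ratio of cyclopamine over control for each probe of the genes that had 2 or more, numbered from the brightest (the dimmer Gli1 probe, not above the filter, is not drawn); circles are replicate 1 (female pools), squares replicate 2 (male pools), error bars the SD over spots, open symbols a probe that was not tested. All 3 Gas1 probes lie above 0 on both arrays, and the probes of Ptch1 and Hhip lie below 0 on both.

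The 9 genes had 6 further probes beyond the brightest. On replicate 1, 5 of these had the sign of the brightest probe of their gene, and on replicate 2, 3 of them. The exceptions were the untested Kif7 probe on both arrays and the dimmer probes of Sufu and Cdon on replicate 2. Spots of the same probe agreed closely: the SD of the log2 ratio over spots ran from 0.0088 to 0.14 for the brightest probes.

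Across arrays, 4 of the 9 genes were higher with cyclopamine on both (Shh, Gas1, Boc and Sufu), 2 were lower on both (Gli3 and Kif7) and 3 pointed in opposite directions (Smo, Cdon and Gli2). Of all 19397 genes tested, 28.6% were higher on both, 29.0% lower on both and 42.4% in opposite directions. The 3 genes in opposite directions all had the cyclopamine pool higher on replicate 1 and the control pool higher on replicate 2, which in dye terms means red over green on both arrays. This pattern was seen in 21.1% of all genes tested and its reverse in 21.3%. Endothelium markers had the same pattern in 4 of 6 genes, fibrocyte markers in 5 of 9, leukocyte markers in 3 of 6 and smooth muscle markers in 3 of 8. Urothelium markers had it in 1 of 15 genes, markers of glia and neurons in 1 of 6 and tested kidney markers in 0 of 2. Of the other pathway genes, 8 of 19 for ligand processing and release, 16 of 37 intracellular regulators and 0 of 3 targets and receptors had this pattern. Whether dye, sex or pool lay behind it cannot be told apart. The median log2 ratio of the 9 genes was 0.14 on replicate 1 and -0.14 on replicate 2, beside -0.0030 and -0.00062 for all genes.

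**Figure D4:**
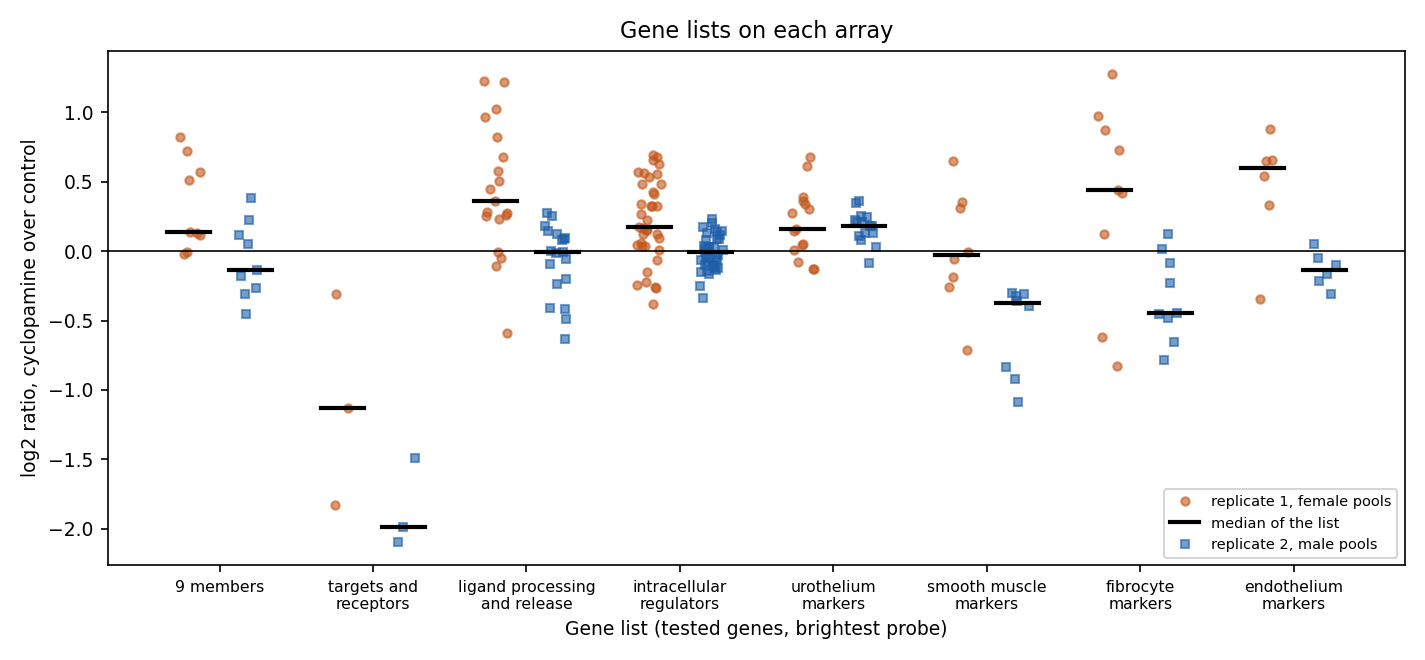
log2 ratio of cyclopamine over control of each tested gene (brightest probe) in the 9 members, 3 pathway lists and 4 marker lists; circles are replicate 1 (female pools), squares replicate 2 (male pools), and black bars the list median on that array. Medians of the 9 members are 0.14 and -0.14, those of the fibrocyte markers 0.44 and -0.44, and those of the urothelium markers 0.16 and 0.18.

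Replicate 1 carried a trend with gene length that replicate 2 did not: Spearman's rho between log2 ratio and genomic length was 0.44 on replicate 1 and 0.035 on replicate 2, over 22468 probes, which are not independent replicates. The 9 genes range from 3131 bases (Gas1) to 266304 bases (Gli3) in the RefSeq annotation of GRCm38. With a smooth trend on length removed, the log2 ratios of Gas1, the shortest, became 1.14 and 0.42. Its mean of 0.78 then passed the limit (limma adjusted p = 0.0158). More probes were called in this setting, 309 lower and 259 higher of 22468, beside 200 and 118 of 25975 as measured. The log2 ratios of Shh became 0.29 and 0.22. The longest genes had lower values on replicate 1 after this step, -0.30 for Gli3 and -0.16 for Gli2, so that Gli2 was then lower on both arrays. Sufu changed sign, from a mean of 0.094 to -0.030. Kif7, lower on both arrays as measured, became 0.056 on replicate 1 and -0.32 on replicate 2. Smo and Cdon kept their opposite directions, with 0.69 and -0.21 for Smo and 0.35 and -0.28 for Cdon. The origin of the length trend was not tested.

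**Figure D5:**
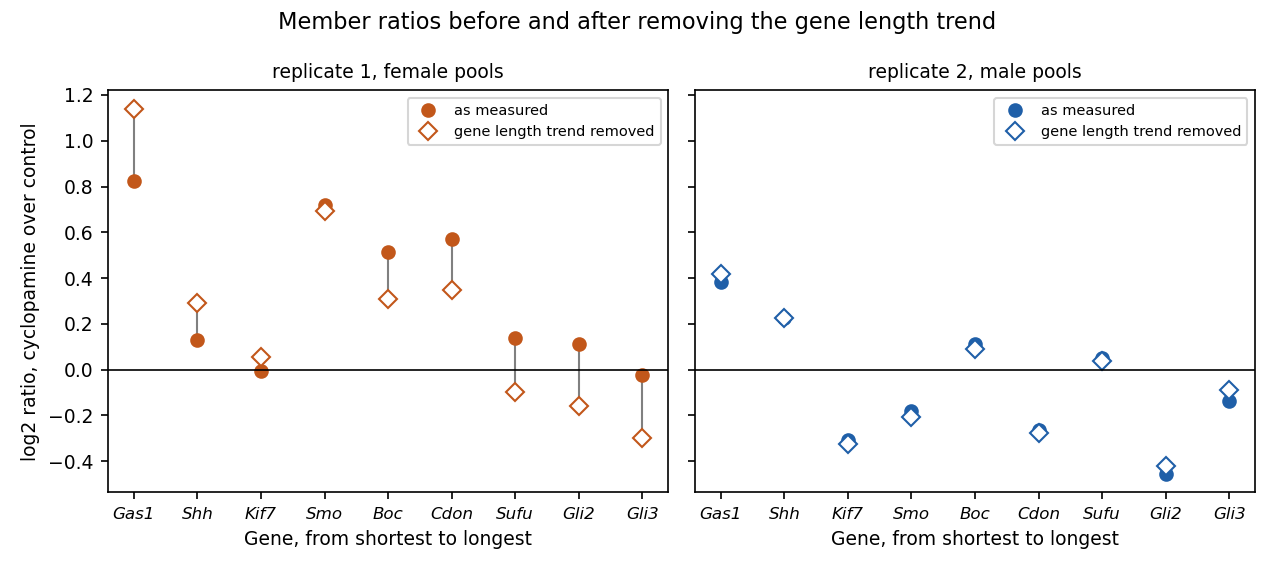
log2 ratio of cyclopamine over control of the 9 genes, ordered from the shortest to the longest, on replicate 1 (left, female pools) and replicate 2 (right, male pools); filled circles are the ratios as measured and open diamonds those with the gene length trend removed. On replicate 1 Gas1 moves from 0.82 to 1.14 and Gli3 from -0.023 to -0.30, while on replicate 2 Gas1 moves from 0.38 to 0.42 and Gli3 from -0.14 to -0.090.

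The other genes of the pathway were grouped by role. Of 19 genes for ligand processing and release, all were tested and none was called. On both arrays 7 were higher and 2 lower, beside 28.6% and 29.0% of all genes tested. At an unadjusted p under 0.05, 3 were higher, beside 819 of all 19397 genes tested. The median log2 ratio of this list was 0.36 on replicate 1 and -0.0081 on replicate 2. The largest mean changes in the same direction on both arrays were those of Lrp2, the gene of the endocytic receptor megalin and also one of the kidney markers, with log2 ratios of 1.23 and 0.28 (limma adjusted p = 0.12), and of Sulf1, the gene of an enzyme that trims heparan sulfate, with 1.22 and 0.25 (limma adjusted p = 0.133). Both were far larger on replicate 1, and both genes are long, at 161695 and 168996 bases. The other Hedgehog ligand genes had intensities of at most 28.1 (Ihh) and 610 (Dhh) and mean log2 ratios of -0.077 and 0.025.

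Of 39 intracellular regulators, which include protein kinase A, casein kinase and GSK3 subunits, ubiquitin ligase parts and ciliary proteins, 37 were tested and none was called in either direction. In this list 14 were higher and 3 lower on both arrays, and none had an unadjusted p under 0.05. The mean log2 ratios ran from -0.20 (Csnk1e) to 0.38 (Itch). The largest changes of the same sign on both arrays were those of Itch, an E3 ubiquitin ligase gene, with 0.67 and 0.089, and of Cul1, a cullin scaffold gene, with 0.48 and 0.23 (limma adjusted p = 0.639 and 0.656). As among the 9 genes, more regulators were higher on replicate 1 than on replicate 2, with 30 of 37 against 18 of 37. Of all genes tested, 49.7% were higher on replicate 1 and 49.9% on replicate 2. All 3 targets and receptors analysed were called lower. Smooth muscle markers were lower with cyclopamine on both arrays in 5 of 8 genes and called in 1, Actg2 (mean log2 ratio -0.90; limma adjusted p = 0.0251).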

How the data were processed

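The arrays were Agilent mouse 4x44K two-colour arrays. Per the file headers, the authors extracted spot intensity values with Agilent Feature Extraction 12.2.0.7 (their processing notes name 10.7.3.1), with background subtraction and linear and LOWESS dye normalisation within each array. The deposited log10 ratio (red over green) and the flags were made by the same software. The deposited series table holds a score per probe, whose values show a signed fold change of cyclopamine over control; it served as an alternative. Spots with an outlier flag (2.89% and 3.15%) and control spots were left out, none was saturated, and the log2 values of the remaining spots of a probe were averaged. Ratios were turned to cyclopamine over control by the dyes in the labels. Genes were named by the accession of a probe in the RefSeq table of GRCm38, otherwise by the array file. Of 39429 probes, 25975 were tested in R 4.3.3 by limma 3.58.1, with lmFit and eBayes on the ratios, no intercept, and +1 or -1 for each orientation of the dyes, at an adjusted p under 0.05. The filter on dim probes required a share of 0.5 or more of the spots to exceed background clearly, for control pools or for cyclopamine pools, on both arrays. The steps were tested on simulated data. Some genes of the lists are not reported here. All 9 members and 3 targets were named, and from each other pathway list the called genes or, with none called, the 2 with the largest mean change of the same direction on both arrays; Ihh, Dhh, Csnk1e and the marker genes were named after their values were seen. The members and lists were chosen with earlier results of these data known. The methods describe independent pools, 1 per sex and treatment, but with 2 arrays the p-values rest mainly on the variance pooled over all probes.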

Additional observations from a re-analysis of the deposited data

Results flagged for a closer look

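Smo, Cdon and Gli2 had log2 ratios of opposite sign in the female and the male pools. The ratio of replicate 1 exceeded that of replicate 2 by 0.90 for Smo, 0.83 for Cdon and 0.57 for Gli2. The same held for the medians of gene lists: the difference of replicate 1 over replicate 2 was 0.27 for the 9 genes, 0.37 for ligand processing and release, and 0.18 for the intracellular regulators. With 1 array per sex, these differences were not tested, and sex, dye orientation and pool cannot be told apart.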

How the results depend on the processing

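The count of 0 called genes among the 9 held under every alternative that gives a test except the removal of the gene length trend, which gave 1 (Gas1; its adjusted p ran from 0.0158 to 0.991 over the settings). By the fold filter the count of 0 higher genes became 1 (Gas1) with 1.5-fold on the mean log2 ratio. Over all genes, 141 were higher by that setting, beside 29 with the limit on each array. On replicate 1 alone, Smo (1.65-fold) and Gas1 (1.77-fold) exceeded 1.5-fold, whereas on replicate 2 they were at 0.883-fold and 1.30-fold of the control. With replicate 1 alone, the fold filter was passed by 1355 higher and 1747 lower genes over all genes. The mean of Sufu turned to -0.030 with the length trend removed; the signs of the other 8 mean ratios held under the settings that used both arrays. The 3 calls among the pathway lists, all lower, became 0 with the series table values (mean log2 ratios still -1.98 for Gli1, -1.34 for Ptch1 and -1.13 for Hhip) and 0 with the 4 channels as separate samples, no replicate block; 1 higher gene (Sulf1) was called with an intensity trend in the prior. Over all probes, the 200 lower and 118 higher calls became 42 and 12 with normexp offset 50 and loess, 125 and 55 with offset 10, 0 and 0 with the series table values, 0 and 1 with separate channels, and 309 and 259 with the length trend removed; without the filter on dim probes 216 were higher. Hhip lost its call with normexp offset 50 (adjusted p 0.159), at a mean log2 ratio of -1.13 against -1.15. The cause was not tested for these changes. The series table values were coarser: a log2 ratio of 0.14 stood for Shh on both arrays and for Gli2 on replicate 1. From the processed signals these ratios were 0.13, 0.22 and 0.11. Each array pairs its own pools, so the ratios already carry the replicate block. Signal over background limits Sufu and the second Kif7 probe.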
